A study of Homo sapiens with 10 samples.

Results

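Complement components and regulators were followed in a human retinal pigment epithelial cell line kept in high glucose. The members were the 9 genes C3, CFB, CFI, C1R, C1S, SERPING1, CD46, CD55 and CD59, taken by symbol from a read-count table of 22626 rows, and all 9 had a row. Of these, 8 were among the 14936 rows that passed the filter on low counts, and CFB was not. ARPE-19, an established line derived from human retinal pigment epithelium, was cultured for 48 h before RNA was extracted and sequenced in bulk. The control group (MG, n = 5) received 5.5 mM D-glucose with 32 mM mannitol, a sugar alcohol added to match the osmotic load, and the high-glucose group (HG, n = 5) received 37.5 mM D-glucose. The line was maintained in DMEM with fetal bovine serum, and it is 1 established line rather than tissue of several donors. Libraries held from 32448991 to 45864176 counts. The high-glucose columns are numbered 1 to 5 here as in the count table and could be tied to their group only, not to single named samples.

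Complement is a cascade of plasma and tissue proteins that coats surfaces with fragments of C3 and can end in a pore through a membrane. The classical, lectin and alternative routes all meet at C3, and soluble and membrane-bound regulators halt the cascade on the body's own cells. In the eye, the retinal pigment epithelium makes several of these proteins itself, and complement at the outer retina is best known from age-related macular degeneration.

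CD46 was higher in high glucose and SERPING1 was lower, and C3, CFI, C1R, C1S, CD55 and CD59 were not called. Among other complement genes, the soluble regulators C4BPB and VTN were lower and the membrane protein THBD was higher. Leaving out 1 library at a time, CD46, C4BPB and VTN kept the call in all 10 fits, SERPING1 in 3 and THBD in 4. Across the table, 2303 of 14936 rows were called at an edgeR adjusted p under 0.05, which is 15.4%, with 1138 higher and 1165 lower. Of the 8 tested members, 2 were called, 1 in each direction, beside 7.62% of all rows called higher and 7.8% called lower. A count of 2 among 8 genes is near that background and is not a result about the members as a group. The members' median log2 fold change was -0.058, beside 0.00132 over all rows tested. A fold above 1.5 with an unadjusted p under 0.05 was met by 1 member (SERPING1), beside 772 genes or 5.17% of those tested. RNA was taken in bulk, so fewer cells and less RNA per cell cannot be told apart.

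A pair of libraries stood apart from the rest. The trend of log2 CPM (counts scaled by library size) on GC content was 0.166 per 10 percentage points in control library 2 and 0.184 in high-glucose library 1, against -0.091 to -0.00407 in the other 8. The same libraries lay at 43.9 and 44.9 on the second principal component, which held 14.9% of the variance, and the other 8 lay between -28.6 and 13.8. Results are given with all 10 libraries, and for the tested members also without both of these. All within-group pairs of libraries differed by more than counting error (mean chi-square per gene 13 to 78.1), so no library was counted as a copy of another.

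The labels were checked on a pair of genes that glucose is known to induce and on cell type markers. TXNIP, a brake on glucose uptake, stood at 0.809 to 1.23 CPM in controls and 5.38 to 12.9 CPM in high glucose (log2 fold change 3.15 ± 0.25 (SE), edgeR adjusted p = 5.55e-05). ARRDC4, its relative, stood at 2.74 to 3.8 and 4.52 to 6.21 CPM (log2 fold change 0.74 ± 0.14 (SE), edgeR adjusted p = 0.00414). For both genes every high-glucose library lay above all the controls. Among 13 pigment epithelium markers, 10 passed the count filter. Of these, edgeR called 1 lower and 0 higher, beside 7.8% of all rows called lower. DESeq2 called 3 markers, beside 3069 of 15911 rows in either direction. At an unadjusted edgeR p under 0.05 there were 5, and no share of all rows is given at that p. Of the 10 that passed the filter, 9 had a negative log2 fold change, beside 7437 of 14936 rows. OTX2, a regulator of this epithelium, stood at 92.5 to 102 CPM in controls and 87 to 90.3 CPM in high glucose, with no overlap but not called (log2 fold change -0.12 ± 0.04 (SE), edgeR adjusted p = 0.0814). MITF stood at 51.5 to 64.9 and 43.9 to 55.2 CPM. PMEL, a melanosome protein, was the marker called lower, at 3.35 to 4.35 and 1.92 to 2.62 CPM (log2 fold change -0.72 ± 0.15 (SE), edgeR adjusted p = 0.00854). TTR was at 0 in every library and RPE65 at 0 to 6 counts, so the visual cycle isomerase of mature epithelium was at or near 0. BEST1 stood at 264 and 551 CPM in control libraries 1 and 4 and at 0.577 to 7.79 CPM in the other 8; its annotated span overlaps FTH1, and the source of those reads was not tested. The epithelial list held 4 genes, of which 2 passed the filter, KRT8 and KRT18, and both were called lower. CDH1 and EPCAM, the rest of that list, held at most 8 and 9 counts. KRT8, a simple epithelial keratin, stood at 1713 to 2087 CPM in controls and 1052 to 1500.5 CPM in high glucose (log2 fold change -0.62 ± 0.10 (SE), edgeR adjusted p = 0.00159). KRT18 had a log2 fold change of -0.68 ± 0.10 (SE, edgeR adjusted p = 0.00142).

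Complement can also be carried into a sample by other cells, so markers of macrophages, endothelium and hepatocytes were read in the same libraries. Of 7 macrophage and leukocyte markers 2 passed the filter, AIF1 and CD163 were at 0 in every library, and PTPRC and CD14 held at most 4 and 8 counts. Their summed level was 60.8, 88.7, 84.1, 76.1 and 75.6 CPM in control libraries 1 to 5 and 149, 115, 118, 108 and 105 CPM in high-glucose libraries 1 to 5. The most abundant was CD68, a lysosomal membrane protein that many cell types express (log2 fold change 0.70 ± 0.12 (SE), edgeR adjusted p = 0.00311). CSF1R, a receptor more specific to macrophages, stood at 5.34 to 7.32 CPM in controls and 3.74 to 5.4 CPM in high glucose, on the other side of 0 and not called (log2 fold change -0.43 ± 0.13 (SE), edgeR adjusted p = 0.0502). Of 4 endothelial markers CDH5 was at 0 throughout and KDR was the most abundant, at 2.67 to 4.57 and 1.82 to 2.77 CPM (log2 fold change -0.63 ± 0.19 (SE), edgeR adjusted p = 0.0452). The endothelial sum was 4.4, 3.86, 2.93, 5.05 and 3.62 CPM in controls and 2.13, 3.01, 2.5, 2.77 and 2.74 CPM in high glucose. Of 5 hepatocyte markers APOB and FGB were at 0, ALB held at most 6 counts, and only SERPINA1 passed the filter (3.13 to 6.32 CPM). Their summed level was 4.7, 6.32, 5.24, 5.96 and 4.58 CPM in controls and 5.07, 3.76, 4.08, 4.26 and 3.28 CPM in high glucose, and the part of any of these markers in the complement values was not tested.

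Levels between genes were compared per length, in the deposited FPKM, which scales fragments by transcript length and library size. CD59, which blocks the last step of pore formation, was the most abundant member at 156 ± 71 FPKM in controls (SD, n = 5). CD46, a cofactor for cleaving C3b and C4b, followed at 64 ± 7.08 FPKM, then CD55, which speeds the decay of convertases, at 50.4 ± 1.76 FPKM. C3, the central component, stood at 40.7 ± 1.95 FPKM. The proteases C1S and C1R stood at 26.3 ± 4.13 and 10.6 ± 2.75 FPKM. CFI, the protease that inactivates C3b, stood at 3.99 ± 0.271 FPKM, SERPING1 at 0.611 ± 0.192 FPKM, and CFB, the protease of the alternative convertase, at 0.0719 ± 0.0344 FPKM. The membrane regulators thus stood above the soluble regulators among the members. In controls only CD59 and CD46 overlapped as neighbours in this order (69.8 to 239 and 53.4 to 72.4 FPKM), and every other neighbouring pair was separated in all 5 libraries.

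**Figure D1:**
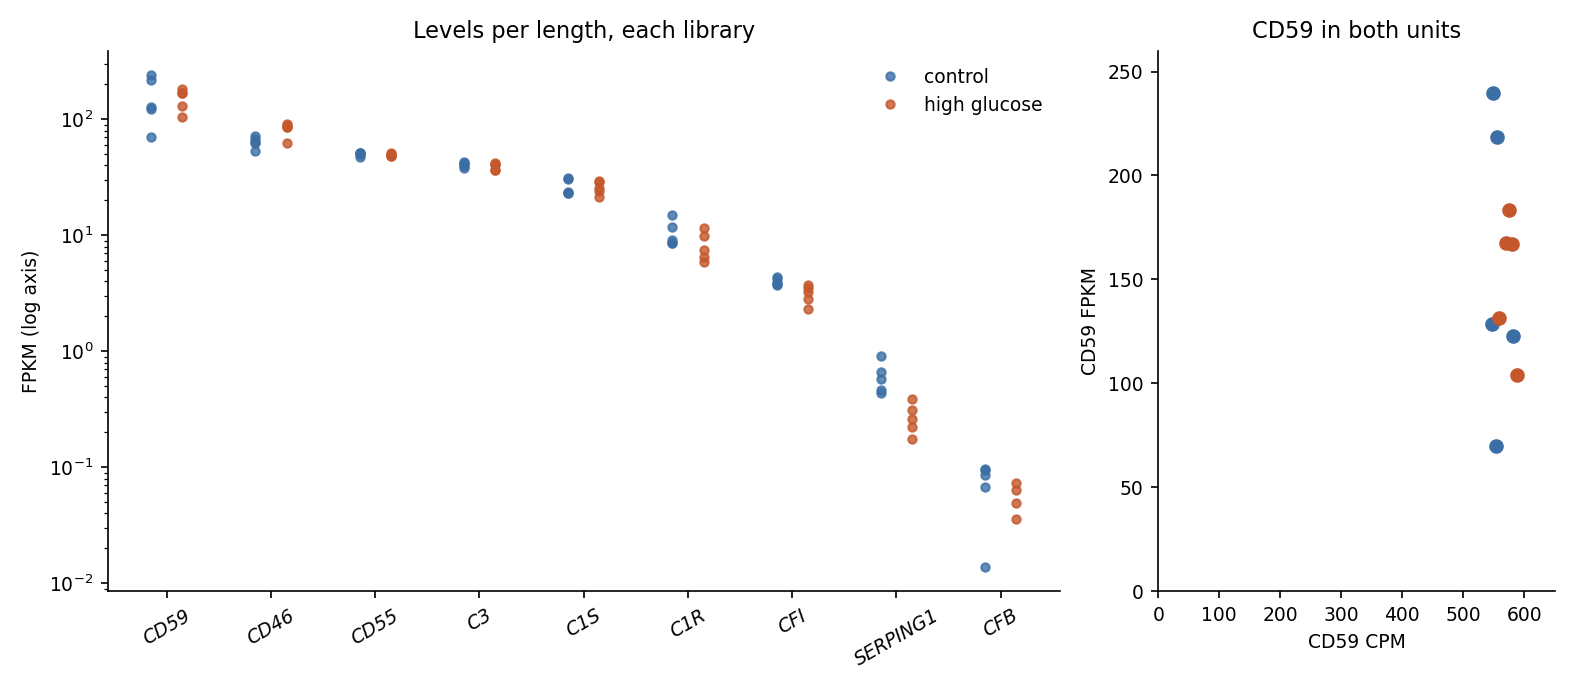
Deposited FPKM of the 9 members in each of 10 libraries on a log axis (left, control blue, high glucose orange; 1 CFB value of 0 in high glucose is not drawn), and CD59 FPKM against CD59 CPM (right, linear axes from 0). CD59 CPM spans 547 to 588, while its FPKM spans 69.8 to 239.

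The place of CD59 in this order depends on values that do not follow its counts. CD59 stood at 554, 582, 549, 556 and 547 CPM in control libraries 1 to 5 and 588, 576, 569.8, 580.0 and 559 CPM in high-glucose libraries 1 to 5. In FPKM the same libraries read 69.8, 123, 239, 218 and 129 in controls and 104, 184, 168, 167 and 131 in high glucose. The counts were nearly level over all 10 libraries, with overlapping groups, and the FPKM spread widely within each group. FPKM divided by CPM ranged 3.46-fold between libraries for CD59, against 1.05- to 1.35-fold for the 7 other tested members. CD59 shares its span with another annotated gene, AL049629.2, and the part of that overlap, or of the transcript length used, was not tested.

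The classical route starts when C1q binds and the protease pair C1r and C1s is switched on. C1R stood at 23.1, 41, 31.1, 22.8 and 24.5 CPM in control libraries 1 to 5 and 31.7, 19.5, 25.9, 15.6 and 17.2 CPM in high-glucose libraries 1 to 5. Control libraries 2 and 3 and high-glucose library 1 were highest, and the groups overlapped (log2 fold change -0.37 ± 0.22 (SE), edgeR adjusted p = 0.311; exact two-sided permutation p = 0.159). Its log2 fold change was -0.20 without control library 2, -0.54 without high-glucose library 1 and -0.37 without both. Of 21 other settings, C1R was called in 1, with 1 estimated surrogate variable in the model (adjusted p = 0.0211, range over the settings 0.0211 to 0.551). C1S, its neighbour in the same reaction, ranged over 70.4 to 95.2 CPM in controls and 64.2 to 86.7 CPM in high glucose, and the groups overlapped (log2 fold change -0.042 ± 0.11 (SE), edgeR adjusted p = 0.861). Without both libraries that stood apart its log2 fold change was -9.75e-05 (adjusted p = 1, range over 21 settings 0.666 to 1). Over the 10 libraries, the centred log2 CPM of C1R was closest to that of PDLIM4, an assembled locus without a gene symbol, and GARIN5A (root mean square difference 0.147, 0.166 and 0.174). C1R and C1S lie near each other on chromosome 12, C1R at chr12:7080199-7092607 and C1S at chr12:6988259-7071032 (GRCh38, GENCODE 29). C1R overlaps C1RL, and C1S overlaps EMG1 and LPCAT3, and the strand used in counting is not given in the sources used here, so reads in the shared stretches could fall to either gene. The recognition chains C1QA, C1QB and C1QC were at 0 in every library. C4A and C4B, near-identical copies whose reads counting can split, held 10 to 37 and 9 to 24 counts and were not called.

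C3 is the point at which all routes meet. C3 stood at 241, 238, 236, 210.1 and 219.7 CPM in control libraries 1 to 5 and 235, 228, 235, 203 and 204 CPM in high-glucose libraries 1 to 5. High-glucose libraries 4 and 5 were lowest, and the other 3 lay within the control range (log2 fold change -0.052 ± 0.061 (SE), edgeR adjusted p = 0.643; exact two-sided permutation p = 0.389). C3 (chr19:6677704-6730562) overlaps GPR108. CFB, whose span overlaps C2, held 6, 2, 8, 6 and 7 counts in control libraries 1 to 5 and 8, 5, 4, 0 and 3 counts in high-glucose libraries 1 to 5. Such counts are near the limit that a count of 0 allows, 3 counts or 0.0654 to 0.0925 CPM in these libraries and for counting error only. CFB was tested by DESeq2 and in the fit with no filter, and was called in neither. CFD, which cleaves factor B, held 4 to 15 counts, and properdin (CFP) 2 to 20 (log2 fold change -0.92 ± 0.50 (SE), edgeR adjusted p = 0.259).

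SERPING1 encodes C1 inhibitor, the plasma serpin that stops C1r, C1s and the lectin pathway proteases. SERPING1 (ENSG00000149131) held 57, 57, 58, 33 and 46 counts in control libraries 1 to 5 and 38, 30, 28, 18 and 14 counts in high-glucose libraries 1 to 5, or 1.73, 1.28, 1.39, 0.999 and 1.03 CPM against 0.987, 0.727, 0.624, 0.547 and 0.426 CPM. All 5 high-glucose values lay under the lowest control value, although high-glucose library 1 and control library 4 nearly touched. Means were 1.29 ± 0.297 and 0.662 ± 0.212 CPM (SD, n = 5), a 1.93-fold fall (log2 fold change -0.95 ± 0.26 (SE), edgeR adjusted p = 0.0316). The exact two-sided permutation p was 0.00794, the smallest that 252 arrangements of 10 libraries can give. SERPING1 was the 1 member of 8 whose groups did not overlap, beside 13.6% of all rows tested. Leaving out 1 library at a time, the log2 fold change stayed between -1.13 and -0.82, but the call was lost without control libraries 1, 2 and 3 (0.0838, 0.0504, 0.0708) and high-glucose libraries 2, 3, 4 and 5 (0.0596, 0.0754, 0.0757, 0.0683), with adjusted p in parentheses, and the range over 20 settings that kept the gene was 0.00926 to 0.0838. Without both libraries that stood apart the log2 fold change of SERPING1 was -1.14 (adjusted p = 0.0154). SERPING1 (chr11:57597387-57614853) overlaps no other annotated gene. Over the 10 libraries, its centred log2 CPM was closest to that of NYAP1, CSDC2 and B4GALNT4 (root mean square difference 0.167, 0.19 and 0.2 over 13538 genes searched).

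CFI, the protease that cuts C3b and C4b once a cofactor holds them, stood at 7.73, 9.67, 7.81, 8.44 and 7.7 CPM in control libraries 1 to 5 and 7.79, 6.01, 7.64, 4.74 and 6.48 CPM in high-glucose libraries 1 to 5. High-glucose library 1 lay inside the control range and the other 4 lay below the lowest control (log2 fold change -0.34 ± 0.14 (SE), edgeR adjusted p = 0.132; exact two-sided permutation p = 0.0317). CFI passed the threshold in 1 of 21 other settings, with 1 surrogate variable (adjusted p = 0.0424, range over the settings 0.0424 to 0.242). Its span (chr4:109740694-109802179) overlaps the gene AC126283.2.

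CD46, membrane cofactor protein, lets CFI cut C3b and C4b on the cell's own surface. CD46 (ENSG00000117335) stood at 230.0, 190.0, 219, 221 and 236 CPM in control libraries 1 to 5 and 226, 307, 294, 311 and 299.5 CPM in high-glucose libraries 1 to 5. High-glucose libraries 2 to 5 all lay above the highest control, and library 1, one of the 2 that stood apart by GC content, lay inside the control range. Means were 219 ± 17.8 and 288 ± 35 CPM (SD, n = 5), a 1.31-fold rise (log2 fold change 0.39 ± 0.09 (SE), edgeR adjusted p = 0.0142; exact two-sided permutation p = 0.0238). Without control library 2 and high-glucose library 1 the log2 fold change was 0.42 (adjusted p = 9.13e-05). Where the dependence of counts on GC content and length was taken out library by library, CD46, whose longest transcript is 37.7% GC, stood at 213, 235, 215, 216 and 229 CPM in control libraries 1 to 5 and 298, 290.4, 296, 293 and 284 CPM in high-glucose libraries 1 to 5, scaled over the 13538 genes with both values. The groups then did not overlap, and the log2 fold change was 0.40 (adjusted p = 1.18e-05). The call was missed in 1 of 21 other settings, log2(FPKM + 0.1) in limma, at an adjusted p of 0.0502, and the range over the 21 was 1.18e-05 to 0.0502. CD46 was closest over the 10 libraries to CLDN12, RCBTB1 and PHKA1 (root mean square difference 0.0486, 0.0488 and 0.0495 of log2 CPM).

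**Figure D2:**
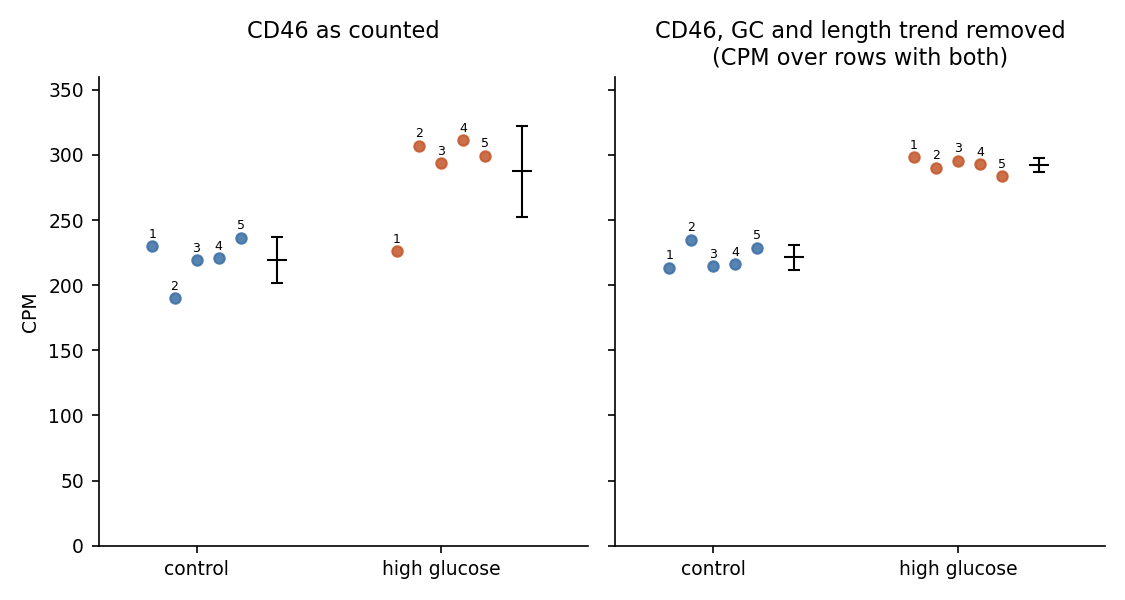
CD46 CPM in each library as counted (left) and after the trend on GC content and length was removed (right). Numbers mark the library, bars are mean ± SD of 5, and the same removal widened the spread of CD55 and CD59; high-glucose library 1 reads 226 CPM as counted and 298 CPM after removal.

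CD55 and CD59 guard the same surface and were not called. CD55, decay-accelerating factor, stood at 126, 139.6, 136, 138 and 134 CPM in control libraries 1 to 5 and 130.0, 127, 131, 125 and 129.7 CPM in high-glucose libraries 1 to 5. The groups overlapped (log2 fold change -0.065 ± 0.039 (SE), edgeR adjusted p = 0.319; exact two-sided permutation p = 0.0556). CD59 had a log2 fold change of 0.043 ± 0.035 (SE, edgeR adjusted p = 0.474). The removal of the GC and length trend that narrowed the spread of CD46 widened that of both. CD59 then read 660.2 CPM in control library 2 and 693 CPM in high-glucose library 1, against 529 to 578 CPM in the other 8, and its control SD went from 14.2 to 54.8 CPM. CD55 read 154 and 142 CPM in the same libraries, against 121 to 139.7 CPM in the other 8. Neither was called after it. Without both libraries that stood apart, the log2 fold changes of C3, CFI, CD55 and CD59 were -0.059, -0.35, -0.054 and 0.051, and none of these was called. CD46 overlaps the pseudogene CDCA4P4 in the annotation. CD46 (chr1:207752057-207795513) and CD55 (chr1:207321376-207386804) lie in the same cluster of regulator genes on chromosome 1, as does C4BPB (chr1:207088842-207099993), and CD46 was called higher, C4BPB lower and CD55 not at all.

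**Figure D3:**
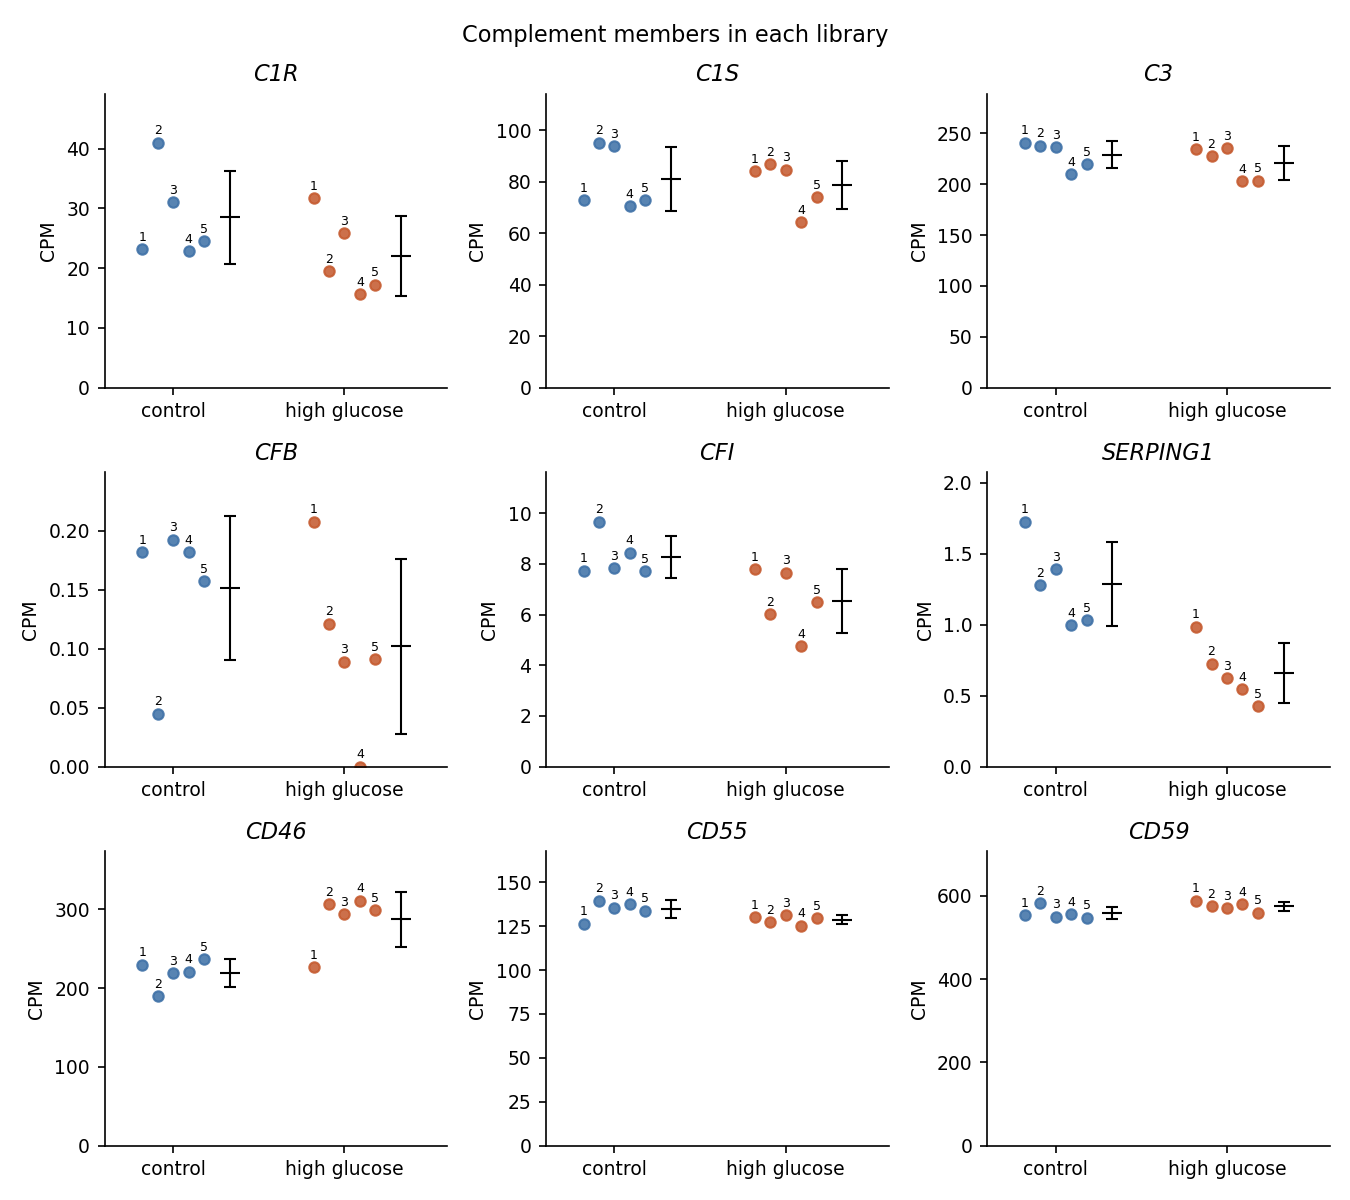
CPM of each of the 9 members in control libraries 1 to 5 (blue) and high-glucose libraries 1 to 5 (orange), with mean ± SD beside each group and axes from 0. SERPING1 separates the groups, CD46 does so except for high-glucose library 1, and CFB is near 0 throughout.

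The rest of the pathway was read from lists of 43 other complement genes, all of which had a row. Of these, 15 were at 0 in every library and 16 passed the filter. Of the 16, 1 was called higher and 2 lower, which is 18.8% beside 15.4% of all rows and so near the background. Their median log2 fold change was -0.30. Tested genes that were not called were C1RL, C4A, C4B, COLEC12, MASP2, CFP, C5, C8G, CLU, SUSD4, C3AR1, C5AR1 and C1QBP. SUSD4, a membrane inhibitor, had the lowest log2 fold change of these at -1.04 (edgeR adjusted p = 0.107), over 9 to 60 counts.

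Of the called genes, 2 were soluble regulators. C4BPB, the beta chain of C4b-binding protein, stood at 9.98, 8.66, 8.46, 8.84 and 8.11 CPM in control libraries 1 to 5 and 2.55, 2.4, 2.34, 2.89 and 4.01 CPM in high-glucose libraries 1 to 5. All 5 high-glucose values lay under the lowest control value, and high-glucose library 5 was the highest of its group (log2 fold change -1.64 ± 0.15 (SE), edgeR adjusted p = 1.24e-04). This was the largest change among the 24 tested complement genes, members included, and it was called in all 21 other settings. The alpha chain C4BPA held at most 2 counts. VTN, vitronectin, which blocks the terminal complex and is a matrix protein beneath the epithelium, stood at 26.7, 31.5, 24.8, 24.4 and 23.2 CPM in controls and 22.4, 16.9, 15.6, 11.8 and 17.1 CPM in high glucose. The groups did not overlap (log2 fold change -0.64 ± 0.15 (SE), edgeR adjusted p = 0.0154), and the call held in all 21 other settings. VTN overlaps SARM1 in the annotation.

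THBD, thrombomodulin, a membrane protein that helps CFI act and also checks coagulation, was the gene called higher. It stood at 5.18, 3.99, 4.4, 4.27 and 4.22 CPM in controls and 6.03, 5.41, 6.31, 5.05 and 6.87 CPM in high glucose, and only high-glucose library 4 lay within the control range (log2 fold change 0.43 ± 0.12 (SE), edgeR adjusted p = 0.0318). The call was lost without control libraries 2, 3, 4 and 5 (0.0576, 0.0658, 0.0677, 0.0741) and high-glucose libraries 3 and 5 (0.08, 0.0767), with adjusted p in parentheses. It was also lost without both libraries that stood apart (adjusted p = 0.0561, range over 21 settings 0.00834 to 0.08). By role, beside 7.8% of all rows called lower and 7.62% called higher, the 5 tested soluble regulators held 3 genes called lower and 0 higher, with a median log2 fold change of -0.64. The 5 tested membrane regulators held 2 called higher and 0 lower, with a median of 0.043. The tested classical, lectin, C3 and alternative, terminal and receptor genes numbered 5, 2, 2, 2 and 3, and edgeR called 0 of them, with 0 at an unadjusted p under 0.05 and 0 by DESeq2. These lists are small beside a background of 15.4%, and whether roles differ was not tested. C5AR1, the receptor for C5a, was called in 2 of 20 other settings, both limma on log2 FPKM (range of adjusted p 0.0114 to 0.509).

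**Figure D4:**
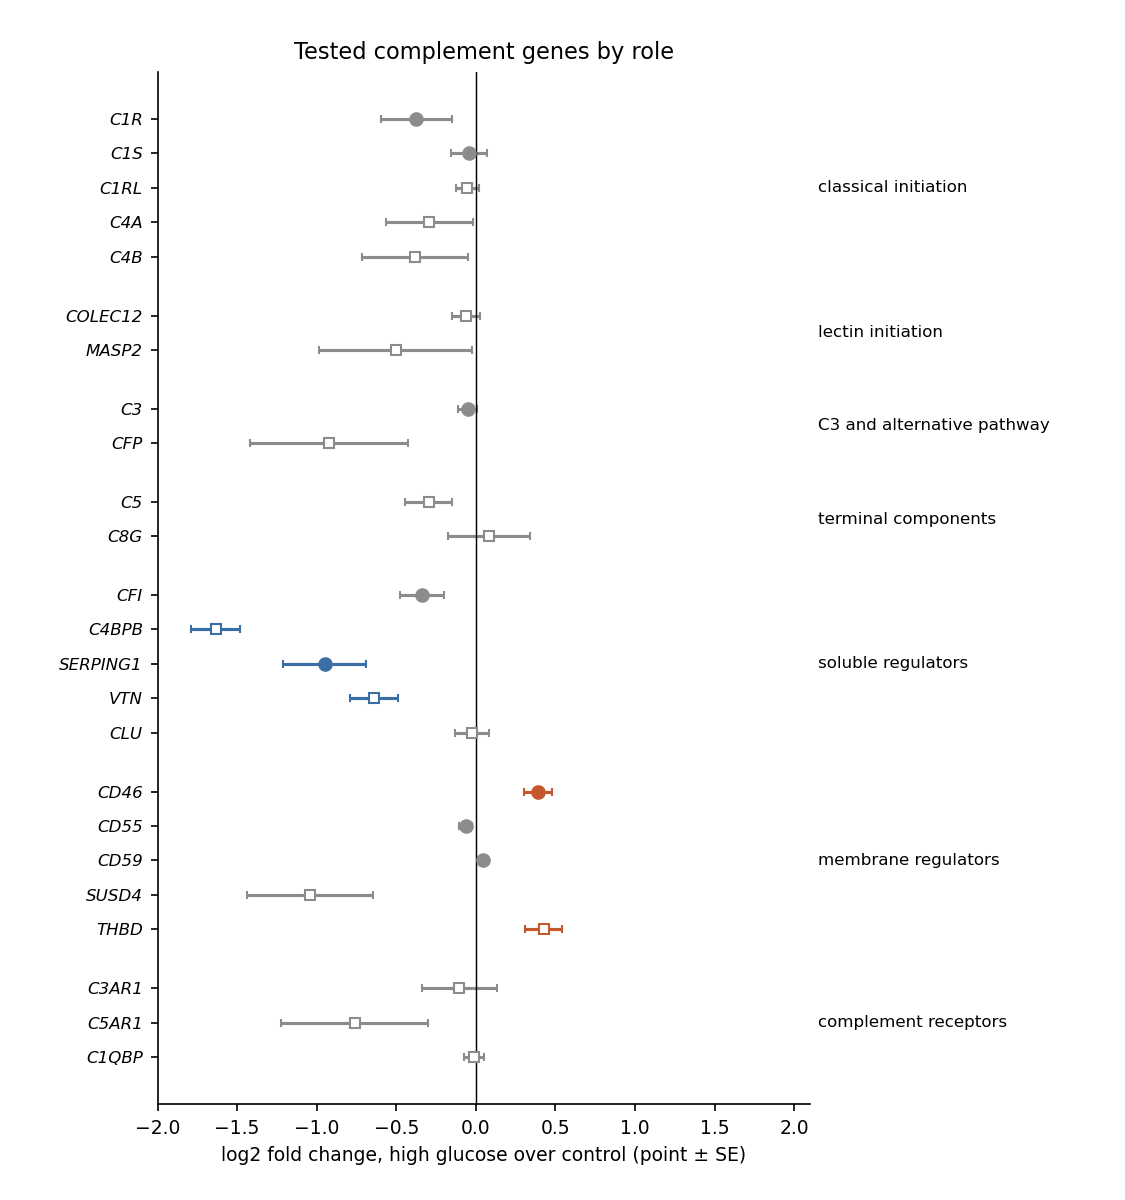
Log2 fold change, high glucose over control, ± SE for the 24 tested complement genes by role (circles, members; open squares, other genes; orange, called higher; blue, called lower; grey, not called). C4BPB, SERPING1 and VTN are called lower and CD46 and THBD higher, C4BPB lowest at -1.64 and THBD highest of the called at 0.43.

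Promoter sequences came from RefSeq on GRCh38.p14. Of the 9 members, 6 had an entry (CFB, CFI, C1R, CD46, CD55 and CD59). Those of CD46, CD59 and C4BPB are shown because they set a regulator gene that rose beside one that was not called and one that fell. The bases shown before their outermost starts lie outside annotated exons. The last 12 bases before the start are left off for CD59 and the last 18 for C4BPB. Each is written 5′ to 3′, and capitals mark a match to TTCNNNGAA.

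CD46 promoter, chr1:207751788-207752037, plus strand: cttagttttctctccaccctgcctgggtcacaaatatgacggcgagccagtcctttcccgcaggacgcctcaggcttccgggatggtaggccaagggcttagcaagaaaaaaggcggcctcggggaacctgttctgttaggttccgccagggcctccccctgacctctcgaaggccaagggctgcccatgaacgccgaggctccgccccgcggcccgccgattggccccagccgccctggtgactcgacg

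CD59 promoter, chr11:33736492-33736729, minus strand: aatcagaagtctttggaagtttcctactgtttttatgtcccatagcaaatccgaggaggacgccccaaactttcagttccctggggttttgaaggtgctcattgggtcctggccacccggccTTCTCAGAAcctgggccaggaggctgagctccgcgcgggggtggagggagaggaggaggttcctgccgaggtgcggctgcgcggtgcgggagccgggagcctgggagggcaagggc

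C4BPB promoter, chr1:207088610-207088841, plus strand: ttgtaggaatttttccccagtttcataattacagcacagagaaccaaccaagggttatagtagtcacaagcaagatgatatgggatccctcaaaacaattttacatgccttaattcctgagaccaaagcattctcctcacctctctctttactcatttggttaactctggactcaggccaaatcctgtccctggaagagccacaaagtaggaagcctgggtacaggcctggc

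Motifs were searched on both strands in windows of 300 bases, from 250 before to 50 after each start. They were GAAANNGAA (interferon response element core), TTCNNNGAA (STAT site) and the kappa B consensus, held by 8.11%, 7.66% and 11.3% of all 35116 promoter windows. CFB held all 3, with the core spanning bases -139 to -131 from its start, the kappa B match -112 to -103 and the STAT site -92 to -84. CD59 held 1 STAT match, which fell in 2 of its windows because these overlap, and C1R held 1. CD46, CD55 and CFI held none in any window. Outside the members, VTN, C1RL and MASP2 held a STAT match, and CFP held the core. C4BPB held the core and the STAT match only in its inner start windows, which overlap and share the same matches. A match describes letters in a window only.

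Interferon and NF-kB genes were set beside these because many complement genes are known to answer to those signals. Of 34 tested interferon response genes, 12 were called lower and 0 higher by edgeR, beside 7.8% of all rows called lower and 7.62% called higher. DESeq2 called 14 of 37 lower and 0 higher, beside 1579 lower and 1490 higher of 15911 rows. At an unadjusted edgeR p under 0.05 there were 19 in either direction, and no share of all rows is given at that p. The 34 tested genes had a median log2 fold change of -0.67. Their summed level was 829.7, 1287, 1646, 866 and 858 CPM in control libraries 1 to 5 and 746, 795, 724, 712 and 764 CPM in high-glucose libraries 1 to 5. In this sum control libraries 2 and 3 stood highest, and the remaining controls lay closer to the high-glucose libraries. Gene by gene, the groups did not overlap for 10 of the 34, beside 13.6% of all rows tested. RSAD2, an antiviral enzyme, stood at 1.49, 5.05, 13.1, 2.18 and 0.876 CPM in controls and 0.364, 0.533, 0.49, 0.365 and 0.182 CPM in high glucose (log2 fold change -3.53 ± 0.72 (SE), edgeR adjusted p = 0.00774). CMPK2, MX1, IFI44L, OAS1 and ISG15 had log2 fold changes of -2.36, -2.16, -1.92, -1.91 and -1.74. Without control library 3 the log2 fold changes of RSAD2, CMPK2 and MX1 were -2.61, -1.44 and -1.42. In that setting 9 of 34 genes were called lower and 1 higher, beside 919 and 882 of 15054 rows. The gene called higher was IFIT2, which is named after its value was seen. The count of 12 fell to 9 of 33 tested without both libraries that stood apart, beside 4035 of 14899 rows called, 2051 lower. It was 7 of 34 without control library 2, beside 2491 of 15049 rows, 1234 lower. It was 5 of 35 without high-glucose library 2, beside 1704 of 15057 rows, 872 lower. Without high-glucose library 3, 4 or 5 it was 4 of 35, beside 1648 of 15058, 1791 of 15103 and 1799 of 15107 rows. Of those rows, 850, 905 and 904 were lower. All of these interferon calls were lower. The call was lost for CMPK2 without high-glucose libraries 2, 3, 4 and 5 (0.0707, 0.0697, 0.0607, 0.0603), for MX1 without high-glucose libraries 2, 3, 4 and 5 (0.0519, 0.0671, 0.0633, 0.0549) and for OAS1 without high-glucose libraries 3, 4 and 5 (0.0564, 0.0564, 0.0562). ISG15 lost it without control libraries 2 and 3 (0.0626, 0.08) and high-glucose libraries 2, 3, 4 and 5 (0.0725, 0.0822, 0.0792, 0.0683), all with adjusted p in parentheses. On log2(FPKM + 1) in limma, RSAD2, CMPK2, OAS1 and ISG15 lost the call (adjusted p = 0.118, 0.152, 0.0634 and 0.0723). Over the alternative settings their adjusted p ranged over 4.81e-07 to 0.118, 6.04e-04 to 0.152, 0.00244 to 0.0634 and 0.0045 to 0.0822 in that order. IFI44L kept the call in all 21 other settings (range of adjusted p 3.94e-06 to 0.0292). Among the controls, C1R and C1S were also highest in libraries 2 and 3, and SERPING1 was not. The part of this signal in the complement values was not tested.

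**Figure D5:**
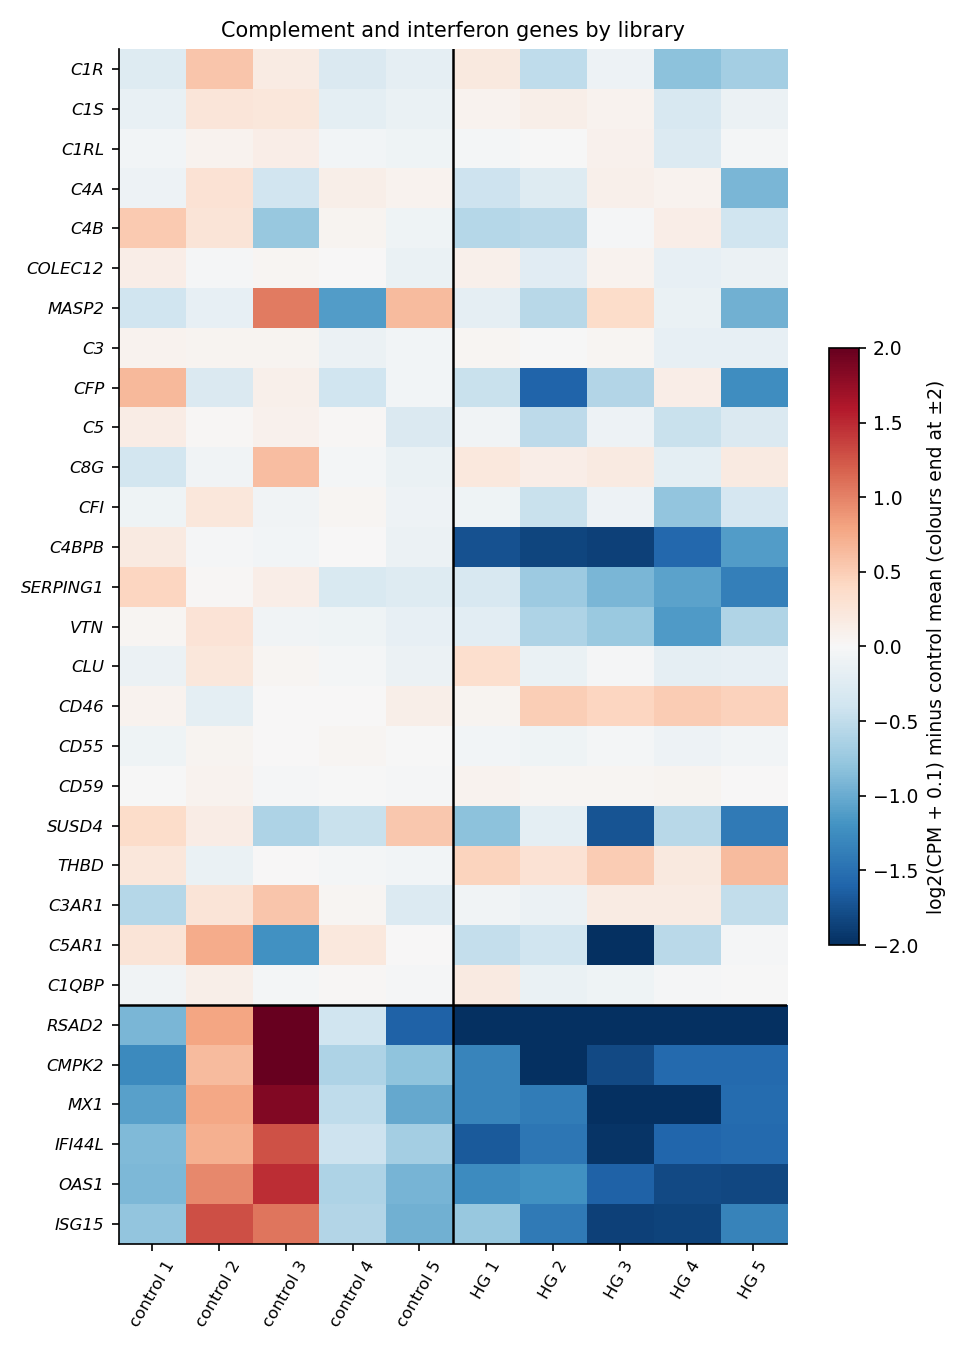
Log2(CPM + 0.1) minus the control mean in each of 10 libraries for the 24 tested complement genes (above the line, by role) and 6 interferon response genes (below it), colours ending at ±2. Interferon genes are high in control libraries 2 and 3, and C4BPB is low in all 5 high-glucose libraries.

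Of 22 tested NF-kB and acute phase genes, 4 were called lower and 1 higher, which is 22.7% beside 15.4% of all rows, with a median log2 fold change of -0.15. The chemokine CCL2 stood at 141, 149, 129.6, 116 and 112 CPM in controls and 78.1, 66.4, 62.4, 43.9 and 51.7 CPM in high glucose, with no overlap (log2 fold change -1.10 ± 0.14 (SE), edgeR adjusted p = 7.31e-04). CXCL1 and TNFAIP3, a feedback inhibitor of NF-kB, were lower, at log2 fold changes of -0.89 and -0.50. CEBPB, a transcription factor of the acute phase, was higher at 0.31, with high-glucose library 1 highest, and it lost the call without control libraries 1, 3, 4 and 5 (0.103, 0.0918, 0.08, 0.0889) and high-glucose libraries 2, 3, 4 and 5 (0.0795, 0.0768, 0.0535, 0.0509) and with no filter (adjusted p = 0.051, range over 21 settings 6.68e-04 to 0.103). STAT3, which carries the interleukin 6 signal, lay at the threshold (log2 fold change -0.16, edgeR adjusted p = 0.0499) and lost the call without control libraries 1, 3, 4 and 5 (0.115, 0.119, 0.0944, 0.0719) and high-glucose libraries 1, 2, 3, 4 and 5 (0.0692, 0.0835, 0.0985, 0.0753, 0.104). STAT3 was also not called with library size alone, with no filter, with at least 10 counts in every library or in the 3 limma fits on FPKM, 15 of 21 other settings in all (range of adjusted p 0.0114 to 0.131). The count of 5 fell to 3 without any 1 of control libraries 1, 3, 4 and 5 or high-glucose libraries 2 to 5. In those settings 1648 to 1801 of all rows were called. The count rose to 10 of 21 tested, 9 lower and 1 higher, with the GC and length trend removed. In that setting 3781 of 13538 rows were called, 1915 lower and 1866 higher. SAA1, SAA2 and LCN2, acute phase genes, did not pass the count filter of the main fit, and neither did CFB.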

How the data were processed

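RNA from ARPE-19 cells was sequenced in 10 libraries. The authors deposited read counts per gene and FPKM values; the submitters' processing notes name fastp 0.20.1, HISAT2 2.2.1 and GRCh38. The counting program, annotation and strand setting are not given in the sources used here. The study states in general that its data rest on 3 or more independent experiments, but not whether each of these libraries came from a culture of its own, so p-values measure the spread between these samples, which may be partly technical. Counts were tested with edgeR 4.0.16 (quasi-likelihood, TMM, filterByExpr) in R 4.3.3, with Benjamini-Hochberg adjustment over all 14936 rows; CPM used the same scaling, with a prior count of 2 on the log2 scale. FPKM as deposited by the authors served for levels between genes and for limma 3.58.1. Single members were checked by exact permutation (scipy 1.17.1). DESeq2 1.42.0 and sva 3.50.0 served as alternatives. The members and lists were chosen with earlier results of these data known. Named were all members, all complement genes of the lists tested, up to 6 called genes each of the interferon and NF-kB lists by absolute log2 fold change, TXNIP, ARRDC4, and for the 3 members with the largest changes the 3 closest genes of at least 1 CPM. Some complement genes are not reported. Single cell type markers were named after their values were seen. An earlier look at these data had set control library 2 and high-glucose library 1 apart. Gene positions came from GENCODE 29 and promoters from RefSeq.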

Additional observations from a re-analysis of the deposited data

Results flagged for a closer look

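In 7 of 76 groups of 5 values examined, 1 library lay far from the other 4, measured as its gap to the nearest value over the group's range; chance gives about 1 in 20, or 3.8. CD46 in high-glucose library 1 read 226 CPM against 293.9 to 311 CPM in the others. CD59 in control library 2 read 582 CPM against 547 to 556 CPM. C8G, a terminal component, read 0.818 CPM in control library 3 against 0.364 to 0.484 CPM, and 0.426 CPM in high-glucose library 4 against 0.557 to 0.597 CPM. CLU, a soluble regulator, read 162 CPM in high-glucose library 1 against 113 to 127 CPM. TNFAIP3 read 32.2 CPM in control library 3 against 27.7 to 28.3 CPM, and CEBPB 98.3 CPM in high-glucose library 1 against 73.4 to 78.8 CPM. Of the 7, 4 fell in the libraries that stood apart by GC content.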

How the results depend on the processing

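The whole table gave 2303 calls, 3709 with 1 surrogate variable, 4035 without control library 2 and high-glucose library 1, 3781 with the GC and length trend removed (13538 rows) and 1648 to 2993 leaving out 1 library at a time. By the fold limit it gave 772, and 304 on log2(FPKM + 1) or 285 with mean FPKM of at least 1, where added values shrink folds; leaving out 1 library gave 719 to 849. Member calls were 2, but 1 on log2(FPKM + 0.1), 1 with mean FPKM of at least 1, 4 with the surrogate variable and 1 to 2 leaving out 1 library. Other complement calls were 3, and 2 to 3 leaving out 1. Interferon calls were 12, but 4, 6 and 5 on the FPKM scales in that order, and 4 to 14 leaving out 1. NF-kB calls were 5, but 3 with no filter, 10 with the trend removed and 3 to 5 leaving out 1. SERPING1 was not kept at a mean FPKM of at least 1. Except where fewer rows or libraries entered, the cause was not tested. No paired analysis was made because no source ties a high-glucose library to a control library: the high-glucose samples carry letters, and nothing shows that equal column numbers share a source. Of the single-gene values, 675 kept direction and side of the threshold, 64 lost the call, 4 gained it and 16 changed sign, none of them called. Signs changed for C1S (-0.087 to 0.0242), C8G (-0.0198 to 0.307), C3AR1 (-0.231 to 0.0616), CLU (-0.124 to 0.0411) and C1QBP (-0.0593 to 0.021) leaving out 1 library, given as the lowest and highest log2 fold change, for CLU on the FPKM scales (0.0234, 0.0242, 0.0234) and for C1QBP with library size alone (0.00155). Counts of 14 to 58 for SERPING1 and 0 to 8 for CFB limit their precision.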
